A study of Mus musculus with 6 samples.

Results

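Retained intron transcripts are annotated models of a gene in which a stretch that other models remove by splicing stays in the RNA. The members described here were all transcripts with the GENCODE M21 type retained_intron and at least 20 reads summed over all files of the 6 mice. There were 1791 of them in 1502 genes, out of 10498 transcripts of that type with at least 1 read and 61729 transcripts in all. Of the 1502 genes, 1473 were protein-coding. They were selected on summed reads, so the abundance of the members is a description and carries no test. At the edge of the rule lay 67 members with exactly 20 reads and 76 transcripts of the type with 19 reads.

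The reads are direct cDNA, copied from poly-A RNA without amplification and sequenced on an Oxford Nanopore device, from epididymal white adipose tissue (eWAT), the fat pad beside the epididymis. All animals were wild-type C57BL/6N males of 20 weeks from a colony kept at 22 to 24 °C, and each library started from 100 ng of poly-A RNA. Controls (ctrl) were mice 5, 6 and 10, and the labels do not say whether they lived alone. Cold mice 7, 12 and 16 lived singly at 4 °C for 24 h. Replicates are separate animals, and values below follow the order ctrl 5, 6 and 10, then cold 7, 12 and 16. The comparison asks whether a day in the cold alters how much of a gene's RNA is found as a retained intron form.

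Introns are removed from nascent RNA by the spliceosome, which recognises the 5′ splice site, the branch point and the 3′ splice site. RNAs that keep an intron are often held in the nucleus or, after export, can be degraded by nonsense-mediated decay when the intron brings a stop codon into the reading frame. Splicing regulators themselves, among them SR proteins and the CLK kinases that phosphorylate them, are known for keeping introns in part of their own RNA, and for some of these introns splicing is completed later in response to a signal.

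The intron sequences show whether a kept stretch would bring a stop codon into the frame of another, coding model of the gene. The lines below give whole kept introns, 5′ to 3′ on the sense strand, from members with many reads or a small usage p. They come from the GENCODE M21 models on GRCm38, and the capitals mark the first stop codon in the frame of the coding model that splices the intron out.
Slc1a5-202: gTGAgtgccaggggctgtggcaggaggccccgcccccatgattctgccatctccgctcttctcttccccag
Pck1-202: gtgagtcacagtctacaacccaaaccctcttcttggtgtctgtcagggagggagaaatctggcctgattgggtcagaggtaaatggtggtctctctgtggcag
H2-K1-203: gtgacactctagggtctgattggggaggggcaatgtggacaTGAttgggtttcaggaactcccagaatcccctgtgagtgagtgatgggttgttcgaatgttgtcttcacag
Nnat-204: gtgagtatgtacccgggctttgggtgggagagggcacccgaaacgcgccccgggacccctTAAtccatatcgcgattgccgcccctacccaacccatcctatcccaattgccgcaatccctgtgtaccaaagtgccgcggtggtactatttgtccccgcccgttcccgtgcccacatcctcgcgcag
Dennd4a-208: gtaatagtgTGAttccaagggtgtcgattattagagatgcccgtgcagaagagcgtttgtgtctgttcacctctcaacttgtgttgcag
Eif4a1-204: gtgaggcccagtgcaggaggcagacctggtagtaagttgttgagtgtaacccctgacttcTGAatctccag
Fth1-207: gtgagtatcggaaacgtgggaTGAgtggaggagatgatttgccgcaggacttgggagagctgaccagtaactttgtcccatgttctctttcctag
Clk1-204: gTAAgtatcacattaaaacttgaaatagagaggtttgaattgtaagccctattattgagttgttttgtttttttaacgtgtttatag
Rpl10a-208: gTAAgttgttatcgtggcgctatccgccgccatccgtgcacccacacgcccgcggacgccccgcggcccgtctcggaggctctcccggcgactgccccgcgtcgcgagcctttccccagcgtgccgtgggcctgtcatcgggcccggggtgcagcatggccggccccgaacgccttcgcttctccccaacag
Of these 9 introns, 8 carry a stop codon in frame, and the one of Pck1-202, which has no capitals, does not.

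The 71-base intron of Slc1a5-202 lies at chr7:16795953-16796023 on the plus strand and brings a TGA at its base 2. In Clk1-204 (chr1:58417180-58417266, minus strand, 87 bases) and Rpl10a-208 (chr17:28328619-28328810, plus strand, 192 bases) a TAA also starts at base 2. The stop begins at base 10 in Dennd4a-208 (chr9:64889127-64889215, plus strand) and at base 22 in Fth1-207 (chr19:9984686-9984780, plus strand). It begins at base 42 in H2-K1-203 (chr17:33996504-33996615, minus strand) and at base 61 in both Nnat-204 (chr2:157560261-157560447, plus strand) and Eif4a1-204 (chr11:69668334-69668404, minus strand). The intron of Pck1-202 (chr2:173158089-173158191, plus strand) has 103 bases and would be read through without a stop. All 9 lie between coding exons. Clk1-204 and Rpl10a-208 each keep 2 introns, of which 1 is shown. The frame is that of the coding model, and a member can lack its upstream exons. Dennd4a-208, for instance, begins just before intron 18 of 33.

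Over all members, 1074 models (60%) span at least 1 whole intron of another model of their gene, 698 of them 1 intron and 376 of them 2 or more, up to 9. Another 712 models (39.8%) reach only partly into an intron, so that the annotation type there marks an end or start inside an intron, and 5 models do neither. Of 168 models with 1 exon, 80 span a whole intron. The files count reads per model and do not say whether a read crosses the kept intron. The model length had a median of 2351 bases, with quartiles of 1200.5 and 3512.

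The 1074 models hold 1613 distinct kept introns, and these are short. Their median length was 269 bases (quartiles 120 and 692, range 30 to 8914), against 1051 bases for 19265 other introns of the same genes and 1481 for 144478 other introns of all genes with at least 20 reads. Introns of up to 150 bases made up 31.3% (505 of 1613). These are properties of the annotated models that passed the read minimum, and they are given without a test. Both comparison sets came from protein-coding models. They leave out introns counted as kept in any retained intron transcript with at least 1 read. For a kept intron with alternative ends, the form spliced out in most models was taken, then the shortest, which favours short kept introns. The plot of intron lengths shows the shift over the whole range.

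**Figure D1:**
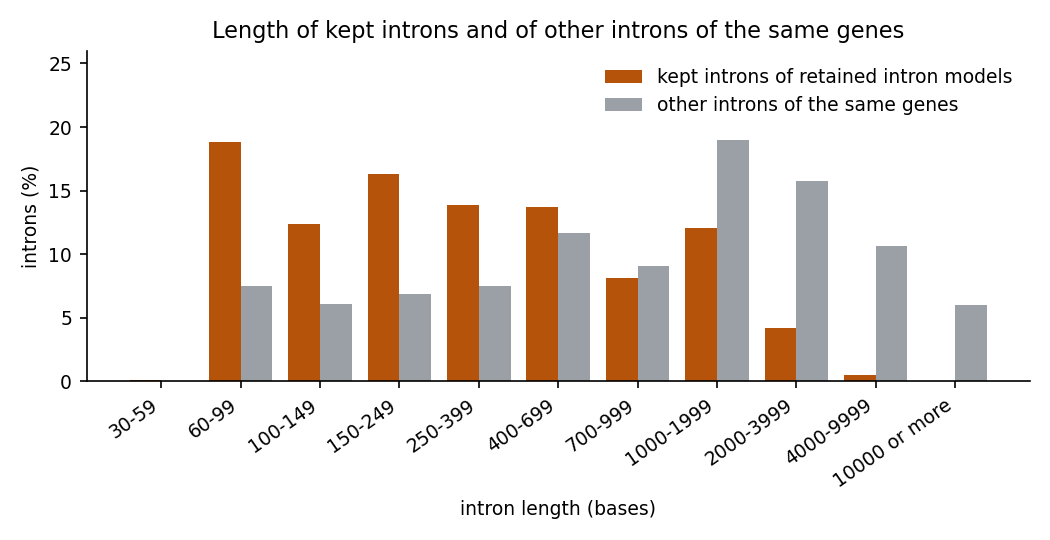
Percentage of introns (vertical axis) by length in bases (horizontal axis, bins of unequal width) for the 1613 kept introns and the 19265 other introns of the same genes. Kept introns are the more frequent in each bin from 30 to 699 bases and the less frequent in each bin from 700 bases up.

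Kept introns had the usual splice sites. The ends were GT and AG in 1573 of 1613 (97.5%), GC and AG in 23 and AT and AC in 2, and the median GC content was 51.6%. By position, 1400 lie between coding exons, 39 in a 5′ UTR, 26 in a 3′ UTR and 148 in models without a coding region. Of the 1400 between coding exons, 1239 (88.5%) hold a stop codon in frame. The 161 without one had a median length of 92 bases, and 42 of them have a length that is a multiple of 3. First introns were 9.67% and last introns 14.1% of the kept introns of genes with several introns, where an even spread over positions would give 14.3% for each. In 23 genes, 42 kept introns contain an annotated small RNA gene, such as Snord14c, Snord14d and Snord14e in Hspa8-208, Snord68 in Rpl13-202 and Snora65 in Rpl12-207.

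The members held 183019 reads, with a median of 43 over the 6 mice. Only 339 had at least 100 reads and 21 at least 1000, while 1037 had fewer than 50. The 15 members with the most reads held 26.8% of all member reads. Fabp4-202 alone held 9.28%. Its gene encodes the main fatty acid carrier of adipocytes, and the model, 4231 bases in 1 exon, spans all 3 introns. It had 2125, 3176 and 3384 reads in the controls and 1902, 3385 and 3007 in the cold mice. These were 13.8%, 12.6% and 15.1% of the Fabp4 reads in the controls and 11.7%, 12.1% and 16.9% in the cold mice, so the groups overlapped.

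As a share of their gene's reads over all mice, members had a median of 16.3%, with quartiles of 7.77% and 27.7%. In 97 members the share was above 50%, and in 269 it was below 5%. Models spanning a whole intron had a median share of 17.3% and those reaching partly into one 14.9%. A gene could have several members: 244 genes had more than 1, and Gas5 had 5. For 6 members no other transcript of the gene had a read, so their share is fixed at 100%. In all, 343 members overlap a different gene with at least 10 reads, and since use of strand by the counting is not given in the sources used here, their reads are uncertain.

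Among the most read members, Slc1a5-202 kept to a narrow range of shares. The gene encodes ASCT2, a glutamine transporter, and the model keeps the 71-base intron 7 of 8 shown above. It took 41.4%, 39.3% and 43.3% of the gene's reads in the controls and 40.0%, 42.0% and 45.9% in the cold mice. Pck1-202, which keeps the last intron of the gene for cytosolic phosphoenolpyruvate carboxykinase, an enzyme of glyceroneogenesis in fat, took 32.6%, 29.8% and 32.2%, then 29.3%, 31.6% and 41.3%. In both cases cold 16 was the highest of the 6 mice. Sod1-202, from the superoxide dismutase gene, keeps introns 1 and 2 and took 22.0%, 19.1% and 22.0%, then 18.7%, 20.6% and 34.8%. Scaf4 overlaps this model.

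Some of the most read members were lowest in the same mouse. H2-K1-203, from a classical MHC class I gene, took 42.6%, 45.0% and 44.0% in the controls and 43.1%, 44.5% and 34.4% in the cold mice. H2 genes have near-identical copies, so reads may be shared among them. Rsrp1-204, from a gene for an arginine and serine rich protein, took 44.5%, 46.0% and 41.6%, then 45.2%, 39.8% and 31.5%. Nnat-204, from the imprinted neuronatin gene, took 19.7%, 19% and 16.9%, then 14.9%, 15.3% and 11.9%, and here all 3 cold mice lay below all 3 controls. Blcap overlaps Nnat. For all 3 members cold 16 had the lowest share.

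In the other members of the 15 the groups overlapped, except in Dennd4a-208. Ctnnb1-215, a 1-exon model of the beta-catenin gene, took 33.7% to 39.1% of its gene's reads, and Myl6-212 and Myl6-209, from a myosin light chain gene, took 11.3% to 14.9% and 6.41% to 8.62%. Dennd4a-208, whose gene encodes a Rab exchange factor, took 93.5%, 94.3% and 96.5% in the controls and 91.7%, 92.5% and 89.3% in the cold mice. In the usage test described below its log2 change was -0.02 and it did not pass (unadjusted p = 0.910, edgeR). Fam221b-202 was the single transcript of its gene with reads and is overlapped by Tmem8b, and Ctnnb1-215 is overlapped by Ulk4. Car3-202 took 0.974% to 1.94% of the reads of the carbonic anhydrase gene Car3. Ctnnb1-215, Myl6-212, Fam221b-202 and Car3-202 reach only partly into an intron.

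Some members took nearly all reads of their gene. Besides Dennd4a-208 (93.6% of 1455 gene reads) the largest shares were those of Syn3-203, from a synapsin gene (99.6% of 1056), Cpne5-203, from a copine gene (98.9% of 90), and Trpm2-207, from a cation channel gene (98.4% of 126). Tslp-202, from a cytokine gene, took 95.6% of 91 reads and Nr6a1-211, from an orphan nuclear receptor gene, 94.5% of 220. Apart from Dennd4a and Syn3 these genes had few reads, and in them the retained intron model was nearly the single one seen. They were followed by 4930506C21Rik-202 (91.4% of 116), Tmed7-202, from a gene of vesicle transport (90.8% of 411), Gm21188-202 (87.6% of 129) and H2-Q4-202, from an MHC gene (87.5% of 104). Syn3-203 overlaps Timp3, 4930506C21Rik-202 overlaps Mpc1 and H2-Q4-202 overlaps Gm11131. Of these 10, Dennd4a-208, Trpm2-207, Tmed7-202 and H2-Q4-202 span a whole intron.

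Retained intron members were unevenly spread over gene groups. Of 7547 protein-coding genes with at least 100 reads, 17.6% had a member. Among SR proteins and their kinases it was 13 of 21 genes (61.9%), among ribosomal protein genes 44 of 85 (51.8%) and among snoRNA host genes 9 of 20 (45.0%). Nuclear genes of oxidative phosphorylation had 34 of 86 (39.5%) and hnRNP and spliceosome genes 26 of 66 (39.4%). Adipocyte lipid genes had 9 of 44 (20.5%) and nuclear RNA surveillance genes 3 of 20 (15%). Restricted to genes for which the annotation holds a retained intron model, the shares were 27.7% for all protein-coding genes, 69.2% for snoRNA hosts, 68.8% for ribosomal protein genes and 68.4% for SR genes. They were 66.7% for oxidative phosphorylation, 49.1% for hnRNP and spliceosome genes, 47.4% for adipocyte lipid genes and 21.4% for nuclear RNA surveillance. More reads make it easier to reach the minimum of 20, so these shares are counts and were not tested.

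Total reads were 726283 to 1341592 per mouse. The 6 adipocyte markers (Adipoq, Plin1, Cfd, Lep, Lipe and Fabp4) summed to 38979 to 41896 CPM (reads scaled to the total of the library) in all mice, so the labelled tissue showed its defining genes. Cold 16 stood apart in read types. In it 86.9% of reads were on protein-coding transcripts (other mice 89.3% to 89.7%), 2.09% on transcripts typed as nonsense-mediated decay (1.71% to 1.78%), 2.52% on processed transcripts (1.91% to 1.99%) and 0.275% on mitochondrial tRNAs (0.117% to 0.147%). The main results that rest on this mouse are given with and without it. The tissue is a mix of cells, so fewer cells of a type and less RNA per cell cannot be told apart.

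Members took 2.95%, 2.80% and 3.03% of the reads of the control libraries and 2.69%, 2.93% and 3.68% of the cold ones. The groups overlapped, with cold 16 above all other mice and cold 7 below them. The means were 2.92% ± 0.117 and 3.10% ± 0.516 (SD, n = 3), a difference, cold minus ctrl, of 0.180 percentage points. Without cold 16 the difference was -0.110. Models that span a whole intron and models that reach partly into one were both highest in cold 16, at 2.28% and 1.39%, as the plot of reads by mouse shows.

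**Figure D2:**
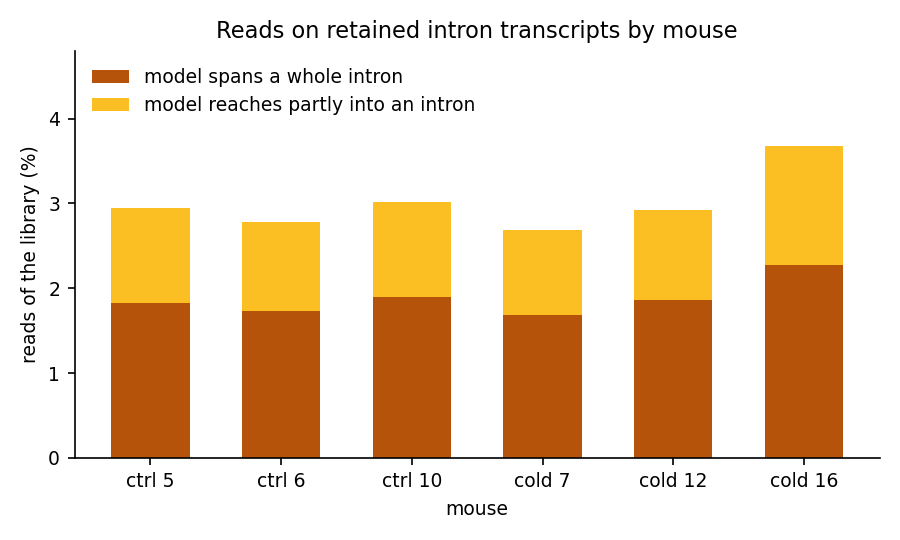
Percentage of the reads of each library (vertical axis) on retained intron members, for the 6 mice (horizontal axis), stacked by whether the model spans a whole intron or reaches partly into one. The bar of cold 16 ends at 3.68%, and the other 5 end between 2.69% and 3.03%.

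The share of the gene's reads gave no clear direction either. Over members whose gene had at least 20 reads in the mouse, the median share was 12.5%, 13.5% and 13.3% in the controls and 10.1%, 13.0% and 14.9% in the cold mice. It rested on different members by mouse, from 1293 in cold 7 to 1648 in ctrl 6. The cold mean minus the control mean was -0.411 percentage points, and -1.54 without cold 16. Over the 1230 members whose gene had that many reads in every mouse, the medians were 9.72%, 9.91% and 10.9%, then 9.52%, 10.4% and 13.8%. On this set the difference was 1.07 percentage points, and -0.203 without cold 16. The sign of the group difference thus depended on 1 mouse and on which members entered the median.

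Of 673 members whose gene had at least 50 reads in every mouse, 321 had their highest share in cold 16, against 58 to 78 in each other mouse. Cold 7 had the lowest share in 181 and cold 16 in 69, against 92 to 114 in each of the other mice. Retained intron members were not alone in this. With the same read minimums, the share was highest in cold 16 for 47.8% of 671 retained intron transcripts whose share varied, 53.4% of 328 processed transcripts and 54.5% of 299 transcripts typed as nonsense-mediated decay. For 3940 protein-coding transcripts it was 24.1%, and 32.2% of them had their lowest share there. Cold 7 and cold 16 had the fewest total reads (726283 and 784035), and shares from fewer reads vary more. What sets cold 16 apart was not tested, nor was the part of read depth.

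The gene groups differed in how often cold 16 held the highest share. It did in 29 of 40 members of oxidative phosphorylation genes, 40 of 63 of ribosomal protein genes and 7 of 12 of adipocyte lipid genes. It did in 8 of 31 members of hnRNP and spliceosome genes and in 3 of 13 of SR and kinase genes. In each of the latter groups cold 16 was the lowest mouse as often, with 8 and 3. By model length the count was 137 of 248 below 1000 bases, 130 of 269 from 1000 bases to below 3000 and 54 of 156 from 3000 bases up. Model length, expression level and gene group overlap, and their parts were not tested.

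**Figure D3:**
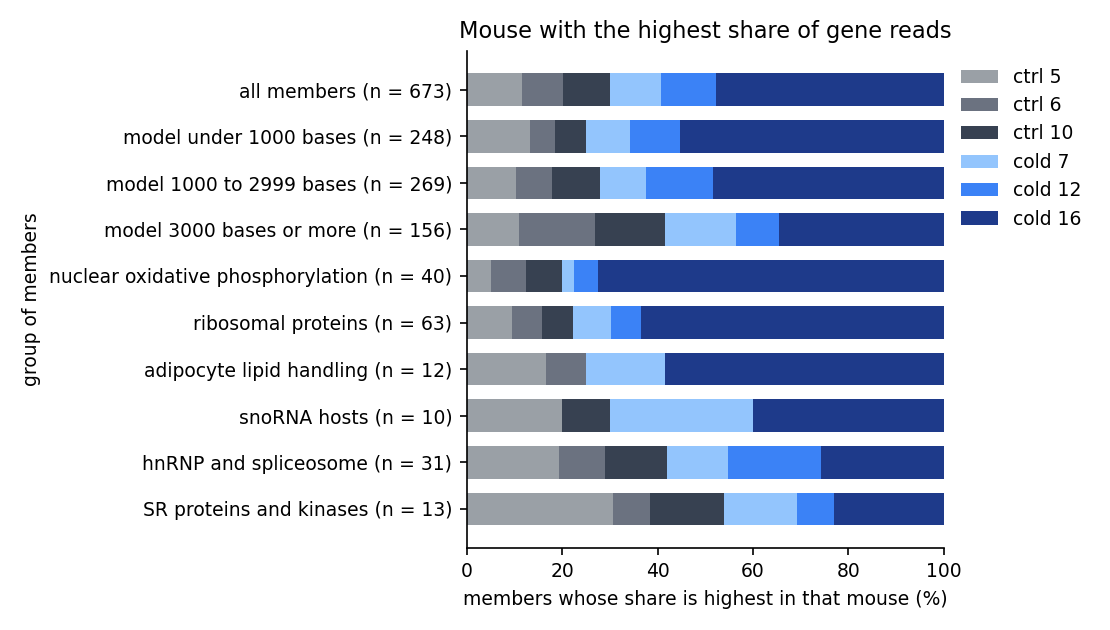
Percentage of members (horizontal axis) whose share of gene reads is highest in each of the 6 mice (colours), for all members, 3 classes of model length and 6 gene groups (vertical axis, with the number of members). Cold 16 holds 29 of 40 members of oxidative phosphorylation genes and 3 of 13 of SR and kinase genes.

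Examples of single members follow, and they do not stand for their gene groups. Cox4i1-203, from a subunit gene of cytochrome c oxidase, took 6.88%, 6.47% and 6.48% of the gene's reads in the controls and 6.22%, 7.28% and 14.1% in the cold mice. Ndufab1-204, from a gene of complex I, took 4.82%, 5.78% and 5.06%, then 6.69%, 5.88% and 11.4%. Rpl13a-210, from a gene of the large ribosomal subunit, took 6.18%, 4.93% and 7.05%, then 5.74%, 7.44% and 12.3%. In each of these cold 16 lay apart from a cluster of 5 mice, although for Ndufab1-204 all cold mice lay above all controls. In the usage test described below, the log2 changes of Cox4i1-203, Ndufab1-204 and Rpl13a-210 were 0.47, 0.56 and 0.46. Without cold 16 they were 0.06, 0.23 and 0.14. Srsf5-212, chosen after its values were seen, went the other way, with 37.5%, 36.2% and 32.0%, then 37.4%, 37.3% and 21.8% of the reads of an SR protein gene. The retained intron member of the kinase gene with the most reads, Clk1-212, also chosen after its values were seen, took 59.1%, 60.5% and 53.8%, then 53.0%, 54.6% and 43.2%. Gm20388 overlaps Cox4i1-203 and Gm45713 overlaps Rpl13a-210. Cox4i1-203 and Ndufab1-204 reach only partly into an intron.

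Read counts of 683 members passed the filter on low counts (edgeR filterByExpr) and were tested among 12325 transcripts. Of these members 2 passed the threshold of an adjusted p of 0.05, against 0.381% of all transcripts. It was 1 member higher and 1 lower in the cold, against 0.325% and 0.0568% of all transcripts. At an unadjusted p under 0.05 there were 49 members (7.17%), against 6.87% of all transcripts. The median log2 fold change, cold over ctrl, was 0.13 for members and 0.01 for all transcripts. The other 1108 members had too few reads for the test, which limits what can be said of them.

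Gm43305-201 rose. It is the single transcript with reads of a non-coding gene at chr14:54292443-54297343 (minus strand), a 1-exon model of 4901 bases that spans the 3747-base intron of the other model. It had 196, 151 and 110 reads in the controls and 202, 675 and 382 in the cold mice. Its level was 139 ± 60.5 CPM in controls and 444 ± 148 CPM in the cold (SD, n = 3), with all cold mice above all controls. The log2 fold change was 1.72 ± 0.24 (SE, edgeR adjusted p = 0.000465). Since no spliced form of the gene had a read, this is a change of the gene's RNA and no change in its splicing was measurable. The 7 markers of epididymal epithelium, all with reads, summed to 51.2, 16.4 and 21.2 CPM in the controls and 148, 432 and 327 CPM in the cold mice, and thus moved with it. The 4 sperm markers summed to 1.07, 11.2 and 3.53 CPM, then 92.4, 108 and 8.94 CPM. Their part in the result was not tested.

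Hdgfl2-206 fell. Hdgfl2 encodes a chromatin protein related to hepatoma-derived growth factor, and the member is a 1-exon model of 576 bases at chr17:56099511-56100086 (plus strand) that reaches partly into an intron. It had 170, 298 and 252 reads in the controls and 94, 153 and 73 in the cold mice. This was 208 ± 23.7 CPM against 117 ± 20.6 CPM (SD, n = 3), without overlap. The log2 fold change was -0.81 ± 0.17 (SE, edgeR adjusted p = 0.0364). It did not pass without ctrl 6, ctrl 10 or cold 12 (edgeR adjusted p = 0.208, 0.192 and 0.141). The total reads of the gene fell from 294 ± 35.1 to 181 ± 19.9 CPM (edgeR adjusted p = 0.0262). Hdgfl2-206 and Hdgfl2-209, both retained intron members, held 95.4% of the gene's reads. The total therefore largely repeats the members and says little about other forms of the gene. As a share of the gene's reads the member took 71.4%, 69.6% and 72.2%, then 74.6%, 63.0% and 56.2%, and its usage test did not pass (unadjusted p = 0.649 in edgeR's model over all transcripts). Another model of the gene, Hdgfl2-209, overlaps Plin4, so the total of the gene is uncertain. For Hdgfl2-206 itself no overlapping gene with at least 10 reads was found.

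Usage was tested with diffSpliceDGE of edgeR, which compares each transcript with the rest of its gene, for 633 members among 6533 transcripts. None of the members passed after adjustment (0 of 633, smallest adjusted p = 1.0), nor did any of the 6533 transcripts (0%). At an unadjusted p under 0.05 there were 10 members (1.58%), against 1.35% of all transcripts, and limma's diffSplice also called 0. In 34 members (5.37%) the share was higher in every cold mouse than in every control, against 4.96% of all transcripts. In 20 members (3.16%) it was lower in every cold mouse, against 4.82%. A p that misses the threshold does not show that usage was equal. Evenly spread p values would put a fraction of 0.05 under 0.05, more than was seen with edgeR. Its usage test was thus conservative on these data, and a count of 0 says little about usage.

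The estimated usage was above 0, that is towards more of the member in the cold, for 417 of 633 members (65.9%), with a median log2 change of 0.11. It was above 0 for 51.5% of all transcripts tested, with a median of 0.01. Without cold 16 it was above 0 for 347 of 769 members (45.1%), with a median of -0.04. Leaving out any other mouse kept it between 62.8% and 70.3%. The direction over members therefore rested on cold 16.

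**Figure D4:**
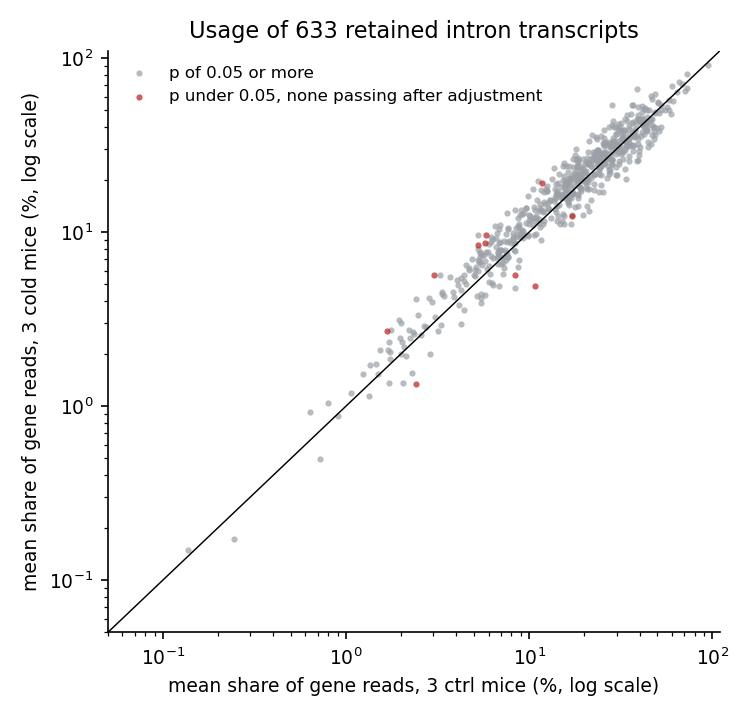
Mean share of the gene's reads in the 3 cold mice (vertical axis, %) against that in the 3 ctrl mice (horizontal axis, %), both on log scales, for the 633 members with a usage test; the line marks equal shares. Points lie along the line, and the 10 members with an unadjusted p under 0.05 (red) lie on both sides of it.

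Summed by gene, retained intron reads against all other types of the gene gave no call (0 of 694 genes by edgeR and 0 by limma's diffSplice, against 0 of 2589 classes of gene and type, 0%). At an unadjusted p under 0.05 there were 13 (1.87%), 10 higher and 3 lower in the cold, against 1.16% of all classes. Both fractions are again under the 0.05 that evenly spread p values would give. In genes with several members the summed share was, for instance, 82.7%, 82.6% and 76.9% of Clk1 reads in the controls and 72.3%, 76.3% and 67.6% in the cold mice. All cold values lay below all controls. For Snrnp70, which encodes a protein of the U1 particle, it was 55.3%, 57.0% and 44.3%, then 50%, 40.0% and 44.4%, and the groups overlapped. For Eif4a1, a translation factor gene that hosts small RNAs, it was 46.5%, 49.2% and 49.6%, then 42.7%, 46.9% and 60.7%. For Slc27a1, a fatty acid transporter gene, it was 69.6%, 62.3% and 61.7%, then 57.6%, 65.2% and 70.1%. These 4 genes were chosen after their values were seen.

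The members with the smallest usage p are described next, although none passed, and every adjusted p was 1.0. They were chosen by the unadjusted p of edgeR's model. Among those higher in the cold, Fth1-207 came first. Fth1 encodes the heavy chain of ferritin, the iron store, and the member keeps its last intron of 95 bases. It took 4.96%, 4.96% and 5.86% of the gene's reads in the controls and 5.50%, 6.03% and 13.7% in the cold mice. The log2 usage change was 0.59 ± 0.21 (SE) and without cold 16 it was 0.13. Car3-203 took 1.65%, 1.58% and 1.80%, then 1.55%, 1.95% and 4.59%, and its change went from 0.62 to 0.07 without cold 16. Gapdh-213, a glycolysis gene model that keeps 5 introns, took 3.10%, 3.53% and 3.19%, then 2.74%, 3.68% and 10.5%. For these 3 members only cold 16 lay apart. Rpl18-205 took 2.69%, 3.32% and 3.03%, then 4.58%, 3.02% and 9.37%, and its change of 0.86 was 0.26 without cold 16. Iffo1 overlaps Gapdh-213. Car3-203 and Rpl18-205 reach only partly into an intron.

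The other 4 members of this direction kept most of their log2 change without cold 16. Rpl10a-208 took 5.57%, 5.99% and 5.59% in the controls and 8.47%, 7.23% and 10.4% in the cold mice. Its log2 change was 0.58 and without cold 16 it was 0.43. Nemf-209, from a gene of ribosome quality control, took 19.4%, 9.64% and 17.2%, then 25%, 22.5% and 27.7%, on 68 reads in all, with changes of 0.75 and 0.71. In both members every cold mouse lay above every control. Ptov1-202 took 16.1%, 8.44% and 10.7%, then 13.0%, 22.2% and 22.5%, with changes of 0.80 in all mice and 0.73 without cold 16. Atp5mpl-205, from a gene of ATP synthase, took 7.62%, 3.63% and 6.14%, then 7.34%, 7.65% and 13.7%, with changes of 0.76 and 0.46. Without ctrl 6 the changes were 0.46 in Nemf-209, 0.52 in Ptov1-202, 0.47 in Atp5mpl-205 and 0.61 in Rpl10a-208. Nemf-209 and Atp5mpl-205 reach only partly into an intron.

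Of the members lower in the cold, 6 of those with the smallest p are described, and 4 of the 6 had no overlap between groups, Nnat-204 above and the next 3. Members of both directions were picked for a small p, so a lack of overlap among them carries no support. Of all 6533 transcripts with usage tested, 4.82% were lower and 4.96% higher in every cold mouse. Fgfr1-206, from a fibroblast growth factor receptor gene, took 9.02%, 12.2% and 11.2% of the gene's reads in the controls and 2.90%, 6.98% and 4.90% in the cold mice, on 62 reads in all. H2-K1-209 took 3.08%, 2.01% and 2.14%, then 1.37%, 1.78% and 0.887%, and Nnat-203 took 2.01%, 2.26% and 1.89%, then 1.58%, 1.31% and 1.19%. Nnat-203 reaches only partly into an intron.

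In the last members of this direction cold 16 was at the level of the controls. Rasa3-205, from a gene of a Ras GTPase activating protein, took 46.9%, 52.1% and 45.4% of the gene's reads, then 24.5%, 26.8% and 50.9%. Clk1-204 took 8.66%, 7.89% and 8.39%, then 3.61%, 2.63% and 8.11%, on 51 reads in all. Without cold 16 the log2 changes went from -0.53 to -0.92 in Rasa3-205 and from -0.83 to -1.34 in Clk1-204. Rasa3-205 reaches only partly into an intron.

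**Figure D5:**
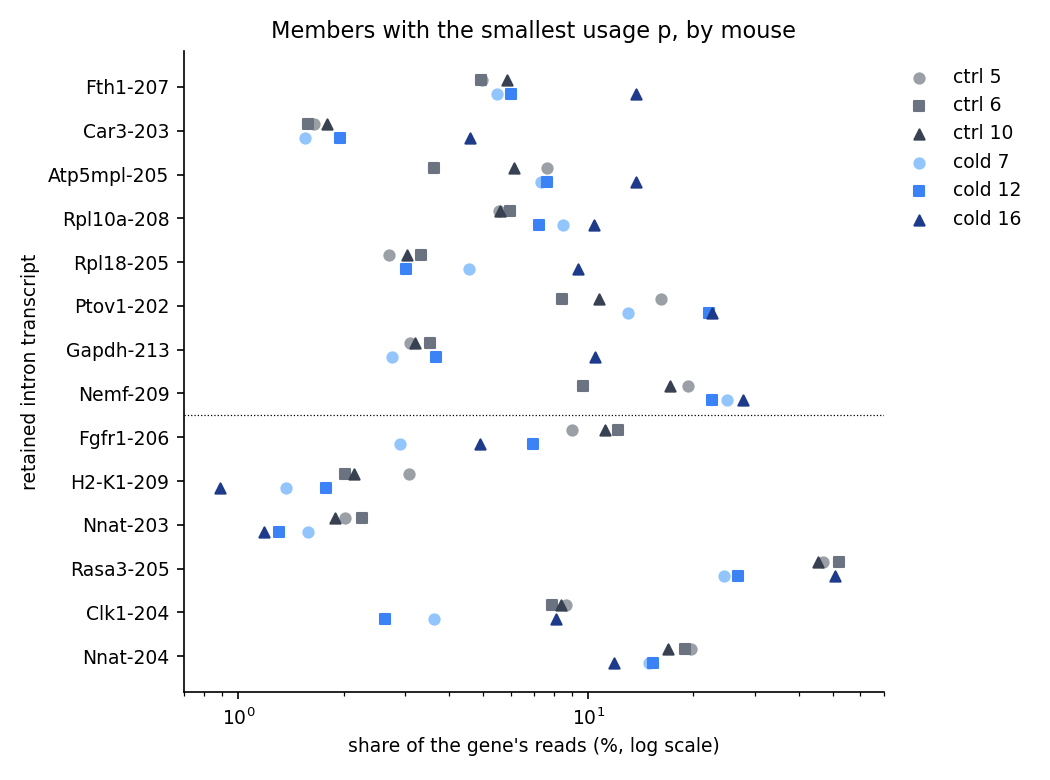
Share of the gene's reads (horizontal axis, %, log scale) in each of the 6 mice (symbols) for members picked for a small usage p, 8 higher in the cold (above the dotted line) and 6 lower (vertical axis). For Fth1-207, Car3-203 and Gapdh-213 only cold 16 lies apart, while for Fgfr1-206, H2-K1-209 and Nnat-203 all cold mice lie below all controls.

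Members of the gene groups followed no common direction. For all groups, the counts of members with usage above 0 and the medians are given with cold 16 only. In adipocyte lipid genes, usage was above 0 in 7 of 9 members tested (median log2 0.08). Acacb-204, from the gene of acetyl-CoA carboxylase 2, took 14.6%, 20.0% and 19.6% in the controls and 22.0%, 31.6% and 25.7% in the cold mice. Its reads were 6, 16 and 9, then 9, 25 and 19. Thrsp-202, from a gene of fatty acid synthesis, took 0.663%, 0.536% and 0.701%, then 0.832%, 0.809% and 1.13%. In both, all cold mice lay above all controls, but on few reads. Fabp5-202, from another fatty acid carrier gene, took 8.12%, 12.4% and 15.6%, then 15.8%, 12.9% and 22.4%, and Dgat1-205, from a gene of triglyceride synthesis, took 8.28%, 7.67% and 9.41%, then 4.24%, 9.96% and 13.8%. None of the 4 passed the usage test. Acacb-204 and Thrsp-202 reach only partly into an intron.

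For ribosomal protein genes usage was above 0 in 32 of 43 members (median log2 0.20), and for oxidative phosphorylation genes in 21 of 25 (median 0.20), in both of which cold 16 was most often the highest. Rpl5-204 took 9.57%, 7.88% and 8.52% in the controls and 9.40%, 9.76% and 16.7% in the cold mice. Atp5l-204, from a gene of ATP synthase, took 5.82%, 3.27% and 5.01%, then 5.58%, 5.88% and 7.30%. Both were highest in cold 16, and in both the groups overlapped. Without cold 16 the log2 usage change went from 0.44 to 0.17 in Rpl5-204 and from 0.44 to 0.33 in Atp5l-204. Gm22270 overlaps Rpl5-204, which reaches only partly into an intron. For snoRNA hosts usage was above 0 in 6 of 8 members (median 0.09). Ncl-202, from the nucleolin gene, took 19.2%, 20.2% and 22.1%, then 25.2%, 20.8% and 29.7%. In the non-coding snoRNA host Gas5, Gas5-222 took 4.61%, 5.80% and 6.18%, then 7.93%, 6.60% and 7.69%, and Gas5-220 took 4.61%, 4.93% and 5.82%, then 7.93%, 7.64% and 3.37%. Gas5-222 had its 3 highest shares in the cold mice, and Gas5-220 did not. Eif4a1-204 took 23.1%, 25% and 23.0%, then 23.6%, 25.7% and 29.3%.

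In the splicing regulators usage was above 0 in 4 of 14 members of SR and kinase genes (median log2 -0.06) and in 7 of 16 of hnRNP and spliceosome genes (median -0.03). Srsf4-201 took 33.3%, 55.9% and 43.9% in the controls and 27.3%, 33.3% and 37.5% in the cold mice. Srsf7-207 took 4.55%, 23.8% and 21.1%, then 20.0%, 29.8% and 21.9%, on 59 reads in all. Clk1-202 took 14.2%, 14.2% and 14.7%, then 15.7%, 18.4% and 14.9%. Of these 3 only Clk1-202 had all cold mice above all controls. Among hnRNP and spliceosome genes, Hnrnpk-217 took 3.21%, 2.16% and 3.52%, then 3.02%, 3.97% and 4.83%. Rbm25-206 took 9.68%, 9.04% and 7.41%, then 8.42%, 5.19% and 5.32%, and Sf3b2-208, from a gene of the U2 particle, took 25.7%, 13.8% and 23.0%, then 19.1%, 28.4% and 27.0%. In these 3 the groups overlapped. Gm12992 overlaps Srsf4-201. Clk1-202 and Sf3b2-208 reach only partly into an intron.

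The genes of the splicing machinery were also compared by their total reads. Of 107 tested genes, 21 SR proteins and kinases, 66 hnRNP and spliceosome genes and 20 of nuclear RNA surveillance, none passed (0 by edgeR, DESeq2 and limma-voom, against 0.655% of all genes by edgeR). At an unadjusted p under 0.05 there were 2, 4 and 0 by edgeR (9.52%, 6.06% and 0%), against 8.19% of all protein-coding genes tested. Srsf10, an SR protein, had 49.4 ± 1.39 CPM in controls and 65.3 ± 5.19 CPM in cold mice (SD, n = 3), with an adjusted p of 0.478 by edgeR. Hnrnpl, an hnRNP, had 303 ± 20.4 and 236 ± 7.63 CPM (edgeR adjusted p = 0.414), and U2af1l4, a relative of the factor that binds the 3′ splice site, had 25.8 ± 2.87 and 15.4 ± 3.43 CPM (edgeR adjusted p = 0.414). Clk1 had 135 ± 7.87 and 112 ± 16.6 CPM (edgeR adjusted p = 0.772). Upf1, the helicase of nonsense-mediated decay, had 55.5 ± 7.03 and 65.6 ± 1.85 CPM (edgeR adjusted p = 0.788). For Srrm1, Clk3, Luc7l, Magoh, Rbm8a and Smg5 the edgeR adjusted p lay between 0.535 and 0.841.

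At the level of total gene reads, 5 of the 1457 tested genes with a member passed (0.343%), against 0.655% of all genes. Of these 4 were higher and 1 lower in the cold, against 0.542% and 0.113% of all genes. Besides Gm43305 and Hdgfl2 these were Thrsp, Eps8l2 and Ckb. Thrsp went from 1036 ± 79.8 to 1635 ± 269 CPM (edgeR adjusted p = 0.0130), Ckb, a creatine kinase, from 71.5 ± 11.0 to 136 ± 54.4 CPM (edgeR adjusted p = 0.0355) and Eps8l2, an actin regulator, from 5.39 ± 0.963 to 16.9 ± 4.71 CPM (edgeR adjusted p = 0.0355). Over all mice Thrsp-202 took 0.789% of its gene's reads, Ckb-204 took 16.3% and Eps8l2-206 took 30.3%. Ckb-204 had 19, 10 and 12 reads in the controls and 8, 29 and 25 in the cold mice, and Eps8l2-206 had 1, 1 and 2, then 1, 7 and 8.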

How the data were processed

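The deposited values are read counts for each annotated transcript, whole numbers that the authors gave in 2 files (X1 and X2) for each of 6 mice. Per the submitters' processing notes, minimap2 placed the reads on GRCm38. Which tool counted them, whether it used strand, how it placed reads with several matches and what separates X1 from X2 is not given in the sources used here. Over members the chi-square per degree of freedom between X1 and X2 was 0.967 to 1.26 in the 6 mice, so both were summed as 1 sample. Of 61729 identifiers, 61538 matched GENCODE M21.

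A share is the member's reads over all reads of its gene. Gaps of at least 30 bases between exons were taken as introns. All transcripts, genes and classes of gene and type were tested with edgeR 4.0.16 (R 4.3.3; TMM, filterByExpr with a minimum count of 10, quasi-likelihood F test, diffSpliceDGE for usage), adjusted by Benjamini-Hochberg over each whole table. Alternatives were DESeq2 1.42.0, limma 3.58.1 (voom, diffSplice), RLE factors, other filters and member minimums, X1 or X2 alone, and leaving out each mouse. The tests were checked on simulated counts. A read is worth 0.745 to 1.38 CPM, depending on the library.

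Members and gene lists were chosen with earlier results of these data known. Named are members past a threshold, otherwise the 8 with the smallest usage p in each direction, the 15 with the most reads, the 10 with the largest share in genes with at least 50 reads, and up to 4 per gene list. Of the 8 lower in the cold, 2 are not reported here.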

Additional observations from a re-analysis of the deposited data

How the results depend on the processing

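No paired analysis was possible because the mouse numbers are not shared between the groups. The count of 2 members past the threshold was 1 with X1 files only and 1 with X2 files only, and between 1 and 4 with each mouse left out. It was 4 without cold 7 (Gm43305-201, Hdgfl2-206, Cda-202 and Ldhd-202) and 1 without ctrl 6, ctrl 10 or cold 12. It was 3 with no filter and 2 under DESeq2, limma-voom, RLE factors and the filter of 10 reads in 3 libraries. Gm43305-201 passed under all of these, with adjusted p up to 0.0374 (DESeq2). Hdgfl2-206 did not pass with X1 files only (-0.84, edgeR adjusted p = 0.0584) or X2 files only (-0.76, edgeR adjusted p = 0.0821). Its log2 fold change was -0.67 to -0.91 with each mouse left out. The counts of 0 for usage, for classes of gene and type and for splicing genes stayed at 0 under every alternative run. For usage and classes, edgeR's test was conservative on these data, so this adds little. Usage changed sign for Gapdh-213 without cold 16 (-0.018, up to 0.88 without cold 7), for Clk1-202 with X1 files (-0.12), for Eif4a1-204 with X2 files (-0.061) and for Dgat1-205 with X1 files (-0.21) and without cold 16 (-0.17, up to 0.43 without cold 7), none of which had passed. The cause was not tested. The difference in the share of all reads was 0.116 to 0.385 percentage points with each mouse but cold 16 left out. The difference in the median share was -1.54 to 0.866 with each mouse left out and 0.431 with a member minimum of 50 reads. The median over the 1230 members with gene reads in every mouse was added after seeing the data.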
